A study of Rattus norvegicus with 4 samples.

Results

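The 36 genes described here encode the glucose transporter and enzymes of glycolysis, proteins that set the flow through it, further genes induced in low oxygen, and the subunits and regulators of hypoxia-inducible factor (HIF). They were listed by symbol, but with earlier results of these data known, so shares of all genes beside them serve for scale only. All 36 were found among the 23608 gene rows of the deposited table. By role they are 1 glucose transporter, 16 glycolytic enzymes, 3 flux regulators, 11 other HIF targets, and 5 HIF subunits and VHL. At least 1 CPM (counts scaled to a common library total after trimmed mean of M-values, TMM, normalisation) in at least 1 library was reached by 35 of the 36. Hif3a, an alternative HIF alpha subunit, had 0 counts in all 4 libraries and was not compared.

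Primary wild-type rat vascular cells from soft connective tissue under the skin were grown as microvessels on soft or stiff extracellular matrix, each without and with A83-01, which blocks the kinase activity of type I TGF-beta receptors. Each of the 4 groups (soft, soft with A83-01, stiff, stiff with A83-01) is 1 mRNA library, and values below are given in that order. The series was designed to ask how stiffness and this inhibitor act on microvessels and on the change of pericytes into myofibroblasts. Neither the stiffness nor the dose, the time in culture, the oxygen level or the animals' age is given in the sources used here.

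Glycolysis splits glucose into pyruvate in the cytosol and yields ATP without oxygen, and lactate dehydrogenase turns pyruvate into lactate when it is not passed to mitochondria. HIF is a transcription factor made of an oxygen-labile alpha subunit (Hif1a or Epas1) and the stable partner Arnt. In oxygen, prolyl hydroxylases of the Egln family mark the alpha subunit for VHL-dependent breakdown. When it escapes, the dimer binds a short DNA core and raises genes for glucose uptake, most glycolytic enzymes, mitophagy, pH control and its own hydroxylases. Endothelial cells are known for a strong reliance on glycolysis, in which Pfkfb3 is a main regulator. HIF alpha protein is controlled largely after translation, so mRNA levels do not report its activity.

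Total counts were between 32271844 and 33416200 per library, over 16128 to 16727 genes with a count. A floor of 3 counts corresponds to 0.0842 to 0.103 CPM. The TMM factor was 0.876 in the stiff library and 1.03 to 1.07 in the other 3, and Col1a1 took 6.09% of the stiff library's counts against 1.82% to 4.05% elsewhere. Scaling by total counts in place of TMM moved the median log2 ratio of all genes by −0.23 for stiff against soft and by 0.28 for A83-01 on stiff matrix. Of the labelled cell types, endothelial markers summed to 1399 to 2409 CPM and pericyte and mural markers to 4027 to 5850 CPM. Cell cycle markers, 8 in all, were highest in stiff with A83-01 (297, 387, 387 and 818 CPM summed). Erythroid markers summed to at most 0.627 CPM. Leukocyte and macrophage markers summed to 114, 159, 79.8 and 84.1 CPM, with Cd3e at 0 in all libraries and Cd74 at 0 in the stiff library. Fibroblast markers summed to 53136, 41725, 71994 and 25330.2 CPM. Most of that sum was Col1a1 (39252, 17577, 69475 and 19079 CPM) and Dcn (11520, 21955, 1442 and 5279 CPM), which differed in direction between the matrices. Adipocyte markers summed to 1415, 1040.1, 704 and 818 CPM. Nearly all of the adipocyte sum was Lpl alone (1397, 1016, 697 and 803 CPM). On stiff matrix the edgeR test used below called 2 of 9 endothelial markers down (Plvap and Vwf), 2 of 9 pericyte and mural markers up (Des and Rgs5), 2 of 6 fibroblast markers down (Dcn and Pdgfra), 1 of 9 leukocyte markers up (Lyz2) and 2 down (Adgre1 and Cd74), and 1 of 4 adipocyte markers down (Plin1). It called 3.29% of all genes down and 2.35% up. Estimates were above 0 for 6 of 9 endothelial, 8 of 9 pericyte and mural, 2 of 6 fibroblast and 2 of 9 leukocyte markers. All 4 adipocyte markers tested had estimates below 0, and Adipoq and Plin1 had 0 counts in the stiff library. The part of these cell types in the results below was not tested. Intervals in parentheses after a fold are 95% counting intervals, which cover counting error only, and PCR copies may make them too narrow. No label ties a library to its own animal or culture, and each group holds 1 library, so p-values measure no spread among replicates. The 1 residual degree of freedom of the edgeR test is the interaction, the difference between the stiffness responses without and with A83-01.

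Because many members are held to share HIF control, the promoters of 6 of them are shown before the values: the 5 with the largest falls among members called on stiff matrix and, for contrast, Gapdh, the most abundant member, which did not pass the test. Each runs 5′ to 3′ from 250 bases before to 50 bases after the RefSeq start in GRCr8, and capitals mark the HIF core ACGTG or GCGTG on either strand. Adjacent capitals can be 2 overlapping matches, as in the palindrome made by ACGTG read on both strands.
Egln3 promoter, chr6:77410966-77411265, minus strand: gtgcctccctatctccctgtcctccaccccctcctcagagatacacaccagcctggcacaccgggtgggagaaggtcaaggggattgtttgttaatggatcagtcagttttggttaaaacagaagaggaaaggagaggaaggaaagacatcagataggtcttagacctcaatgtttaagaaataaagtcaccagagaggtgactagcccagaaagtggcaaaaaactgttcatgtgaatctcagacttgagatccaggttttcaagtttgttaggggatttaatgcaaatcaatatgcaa
Bnip3 promoter, chr1:203154913-203155212, minus strand: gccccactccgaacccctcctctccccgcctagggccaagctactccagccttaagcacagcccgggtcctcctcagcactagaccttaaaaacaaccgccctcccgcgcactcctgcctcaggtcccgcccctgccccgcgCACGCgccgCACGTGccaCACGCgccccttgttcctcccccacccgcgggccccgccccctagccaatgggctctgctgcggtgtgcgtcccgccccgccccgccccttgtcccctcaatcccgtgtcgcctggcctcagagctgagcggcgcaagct
Hk2 promoter, chr4:116841226-116841525, minus strand: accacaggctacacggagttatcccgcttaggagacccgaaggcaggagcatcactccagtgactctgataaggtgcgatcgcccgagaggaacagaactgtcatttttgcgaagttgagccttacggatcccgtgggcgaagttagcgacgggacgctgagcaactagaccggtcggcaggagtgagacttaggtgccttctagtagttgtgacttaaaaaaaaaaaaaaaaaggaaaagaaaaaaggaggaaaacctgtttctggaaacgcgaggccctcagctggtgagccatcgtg
Hif1a promoter, chr6:98359648-98359947, plus strand: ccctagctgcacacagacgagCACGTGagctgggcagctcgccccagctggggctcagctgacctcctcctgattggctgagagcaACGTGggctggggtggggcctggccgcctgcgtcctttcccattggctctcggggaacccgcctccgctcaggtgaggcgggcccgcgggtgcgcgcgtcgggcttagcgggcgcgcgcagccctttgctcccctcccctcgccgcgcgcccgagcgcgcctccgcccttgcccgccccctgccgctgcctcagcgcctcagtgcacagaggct
Pfkfb3 promoter, chr17:71944683-71944982, plus strand: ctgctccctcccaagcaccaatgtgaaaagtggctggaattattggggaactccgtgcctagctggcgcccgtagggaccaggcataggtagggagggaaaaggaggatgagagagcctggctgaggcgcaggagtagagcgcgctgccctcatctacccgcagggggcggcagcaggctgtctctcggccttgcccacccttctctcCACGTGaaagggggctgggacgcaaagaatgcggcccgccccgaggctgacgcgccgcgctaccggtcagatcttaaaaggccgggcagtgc
Gapdh promoter, chr4:159652418-159652717, minus strand: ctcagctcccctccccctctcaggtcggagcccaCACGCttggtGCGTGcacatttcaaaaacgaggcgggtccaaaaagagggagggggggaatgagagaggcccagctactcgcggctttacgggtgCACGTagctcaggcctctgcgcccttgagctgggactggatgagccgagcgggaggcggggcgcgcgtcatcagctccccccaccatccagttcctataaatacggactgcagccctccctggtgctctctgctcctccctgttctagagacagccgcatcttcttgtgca
The Bnip3 promoter held 4 matches packed between positions −108 and −90 from the start, with the overlapping pair in the middle. The Pfkfb3 promoter held only the overlapping pair, at −42 and −41. Hif1a held 3 matches, all ACGTG, and Gapdh held 3, 1 of them ACGTG. Egln3 and Hk2 held none in this window.

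RefSeq promoters were found for 33 of the 36 members, with Ndrg1, Bnip3l and Pgk1 unmatched. Of the 39 promoters of these members, 69.2% held ACGTG or GCGTG and 53.8% held ACGTG. Among all 33469 promoters of the table the shares were 41.6% and 19.3%, and among the 10504 promoters of genes tested here 60.7% and 24.8%. Base composition moved with these shares: G and C made up 63.9% of member promoters, 60.6% of those of tested genes and 52.7% of all. By gene, any of its promoters counted, ACGTG or GCGTG stood in 12 of 15 glycolytic enzymes and 8 of 9 other HIF targets matched. Of the members that fell on stiff matrix, 6 of 8 matched had a match, and 4 of the 8 held ACGTG. By gene, 63.6% of the tested genes matched held either core and 26.7% held ACGTG, as did 78.8% and 63.6% of the 33 members. A match is a letter pattern and not a measured binding site.

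Across the members, levels per transcript length spanned a wide range. Gapdh, which oxidises glyceraldehyde 3-phosphate, had the highest level of all members in each library (2023, 2477, 1597 and 1694 FPKM), followed by the aldolase gene Aldoa (1407, 1564, 935 and 863 FPKM) and the enolase gene Eno1 (896, 967, 712 and 605 FPKM). FPKM scales counts by transcript length and library total, and it is used here mainly to set genes side by side. Where libraries are compared in FPKM, the TMM factor is not applied. The first step lay far lower: hexokinase Hk1 stood at 32.5, 37.3, 29.4 and 36.4 FPKM and Hk2 at 10.4, 10.96, 4.08 and 2.76 FPKM. The lowest levels were those of Car9, a membrane carbonic anhydrase that serves as a hypoxia marker (1.11, 0.786, 0.170 and 0.191 FPKM), and of Pfkfb4 (1.07, 1.07, 0.670 and 1.04 FPKM). The 16 glycolytic enzymes together took 1.12% of counts in soft (Clopper-Pearson interval 1.116% to 1.124%), 1.29% in soft with A83-01 (1.28% to 1.29%), 0.787% in stiff (0.784% to 0.790%) and 0.745% in stiff with A83-01 (0.742% to 0.748%). The 11 other HIF targets took 0.104%, 0.0993%, 0.0545% and 0.0419%. Both sums were lower in both stiff libraries than in both soft ones. Several of these genes have processed copies elsewhere in the genome, and a row for the copy Gapdh-ps2 held 2.61% to 3.36% as many counts as Gapdh. How reads were divided between such copies is not stated, so the counts of Gapdh are uncertain.

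**Figure D1:**
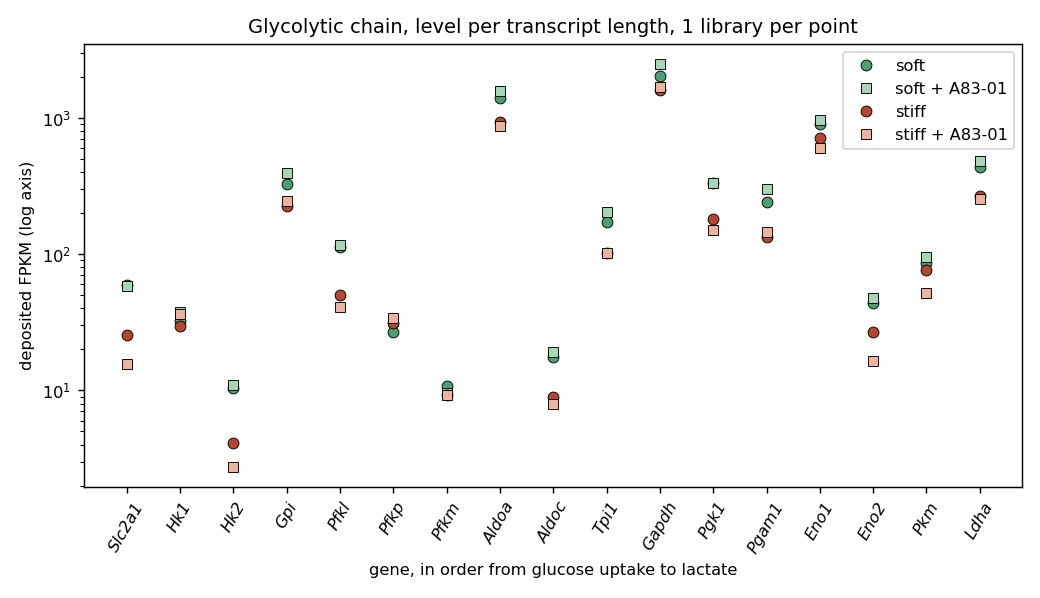
Level per transcript length (deposited FPKM, log axis) of the glucose transporter gene and the 16 glycolytic enzyme genes, in order from glucose uptake to lactate, with 1 point per library. Gapdh, Aldoa and Eno1 stand highest, and both stiff libraries lie below both soft ones for every gene shown except Hk1 and Pfkp. FPKM carries no TMM factor, and in TMM-normalised CPM the values of Pfkm and Pkm overlap between matrices.

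On stiff matrix 9 members, among them Egln3, Bnip3, Hk2 and Hif1a, fell below their level on soft matrix, and the other 26 did not pass the test. With stiffness and inhibitor as additive terms, the edgeR quasi-likelihood test (Benjamini-Hochberg adjusted over 13634 genes) called 9 of 35 members down and 0 up. Over all genes, 3.29% were called down and 2.35% up. The 9 were the HIF targets Egln3, Bnip3, Bnip3l and Kdm3a, the enzymes Hk2 and Pfkl, the regulators Pfkfb3 and Pdk1, and Hif1a itself. In all, 31 of 35 members had an estimate below 0, with a median of −0.77 against 0.01 over all genes tested. Both stiff libraries lay below both soft ones for 26 members and above for 2, while 27.1% and 26.5% of all genes did so. At an unadjusted p of at most 0.05, 22 members were down and 0 up, where 13.2% of all genes were down and 12.1% up. In these bulk libraries, fewer cells of a type and less RNA per cell cannot be told apart, nor can stiffness and a separate preparation of the stiff cultures.

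The count of calls depends on settings more than the estimates do. With RLE scaling, 3 of the 9 (Egln3, Hif1a and Pfkfb3) still passed the edgeR test, where 2.37% of all genes fell. The other 6 had edgeR quasi-likelihood adjusted p of 0.0539 to 0.0634. DESeq2 called 19 members down, total-count scaling 24, and the model without the inhibitor term 0. Over all genes these settings called 5.41%, 8.32% and 0.125% down in the same order.

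**Figure D2:**
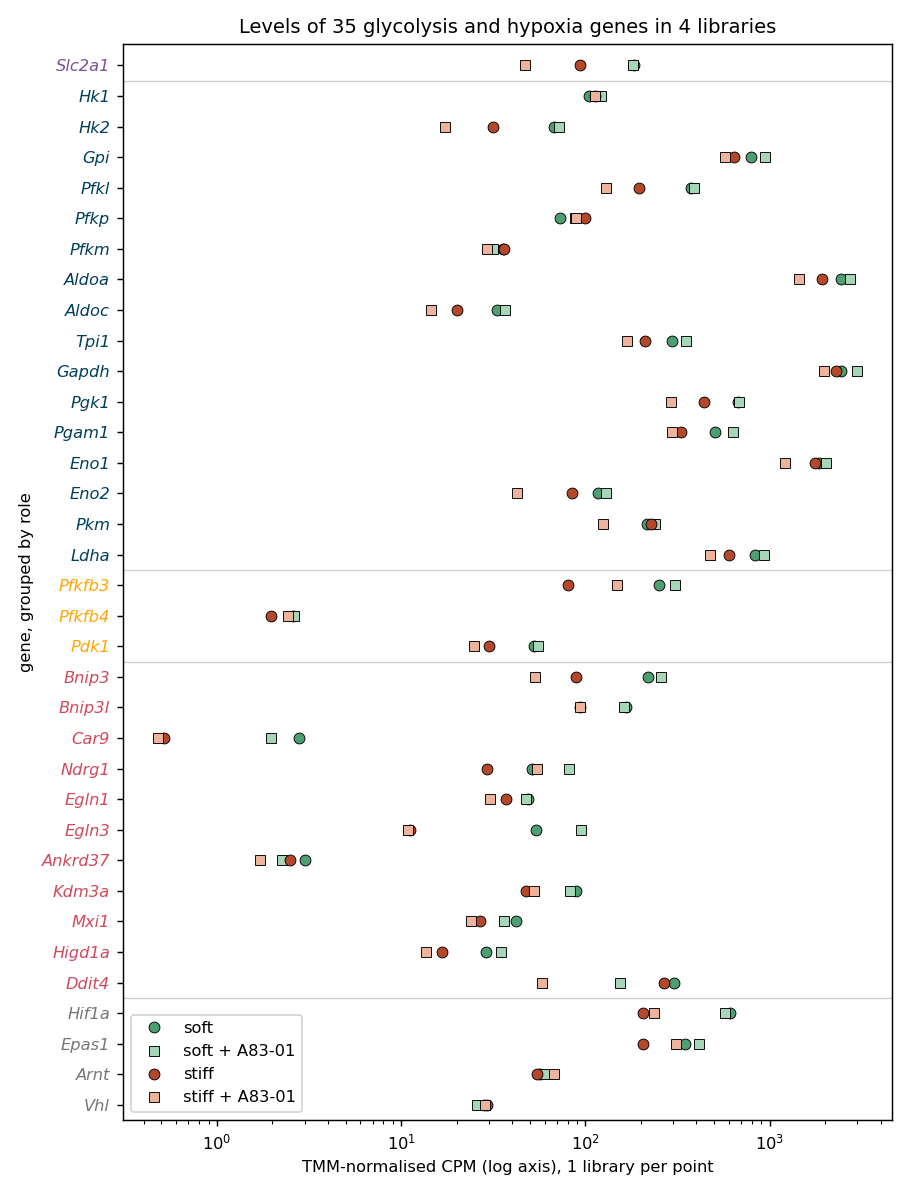
TMM-normalised CPM (log axis) of the 35 members that reached the expression minimum, grouped by role, with 1 point per library. For Egln3, Bnip3, Hk2, Pfkl and Slc2a1 both stiff libraries lie left of both soft libraries, while Ddit4 separates by the inhibitor.

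Among the HIF subunits, Hif1a was the only one that passed the test. It stood at 609, 574, 206 and 236 CPM, and fell on stiff matrix (log2 estimate −1.43, SE 0.180, edgeR adjusted p = 0.0253). Both stiff libraries lay far below both soft ones: Hif1a was 2.96-fold lower (2.88 to 3.05) without and 2.44-fold lower (2.37 to 2.50) with the inhibitor. Epas1, which encodes HIF-2 alpha and is abundant in endothelium, stood at 349, 414, 205 and 309 CPM, with both stiff libraries below both soft ones and the stiff library lowest. Its additive estimate was −0.60 (SE 0.177, adjusted p = 0.129) in the quasi-likelihood test, which did not pass. Arnt, the shared partner, stood at 56.97, 60.7, 54.5 and 67.6 CPM, and the ubiquitin ligase component Vhl at 28.1, 25.8, 29.4 and 28.4 CPM. Arnt overlapped between matrices, and Vhl was slightly higher in both stiff libraries. Neither passed, with estimates of 0.05 and 0.10, and that of Arnt took the opposite sign with total-count scaling. Per transcript length, Hif1a made up 67.6%, 62.4%, 54.4% and 47.3% of the Hif1a and Epas1 sum, so the balance of the alpha subunit messages leaned more to Epas1 on stiff matrix.

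The oxygen-sensing hydroxylases divided in size. Egln3, an inducible prolyl hydroxylase that limits HIF, stood at 54.2, 94.5, 11.2 and 10.8 CPM. The 2 stiff libraries were nearly equal and far below both soft libraries, which differed between themselves. Egln3 fell on stiff matrix (log2 estimate −2.70, SE 0.248, edgeR adjusted p = 0.0148), and was 4.84-fold lower (4.30 to 5.47) without and 8.73-fold lower (7.85 to 9.73) with A83-01. Egln1, the main hydroxylase in normal oxygen, stood at 48.6, 47.5, 36.9 and 30.3 CPM, also with no overlap between soft and stiff. Its estimate of −0.52 (SE 0.143, adjusted p = 0.111) did not pass the quasi-likelihood test. Egln3 made up 20.9% and 32.1% of the Egln1 and Egln3 sum of FPKM in the soft libraries, and 6.70% and 7.83% in the stiff ones.

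Bnip3 and Bnip3l encode outer mitochondrial membrane receptors that direct mitochondria to autophagy. Bnip3 stood at 219, 258, 89.3 and 53.2 CPM and fell on stiff matrix (log2 estimate −1.78, SE 0.273, edgeR adjusted p = 0.0364). Stiff with A83-01 was the lowest of the 4, so that on stiff matrix Bnip3 was 2.45-fold lower (2.34 to 2.56) without and 4.84-fold lower (4.61 to 5.09) with the inhibitor. Bnip3l stood at 167, 163, 93.99 and 93.7 CPM, nearly equal within each matrix, and fell on stiff matrix (log2 estimate −0.81, SE 0.133, edgeR adjusted p = 0.0415). Higd1a, a small protein of the inner mitochondrial membrane, stood at 28.9, 35.04, 16.8 and 13.6 CPM. It was lower in both stiff libraries but its estimate of −1.08 (SE 0.196, adjusted p = 0.0521) missed the threshold of the quasi-likelihood test.

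Kdm3a, a histone H3 lysine 9 demethylase induced by HIF, stood at 88.6, 82.4, 47.9 and 52.4 CPM and fell on stiff matrix (log2 estimate −0.77, SE 0.133, edgeR adjusted p = 0.0469). Mxi1, a MAX partner that opposes MYC, stood at 41.8, 36.1, 26.9 and 23.8 CPM, with an estimate of −0.62 (SE 0.136, adjusted p = 0.0757) in that test. Car9 had 93, 66, 15 and 17 counts, and was 5.38-fold lower (3.10 to 10.00) without and 4.13-fold lower (2.40 to 7.51) with the inhibitor. These few counts leave wide intervals, and its estimate of −2.23 (SE 0.434, adjusted p = 0.0593) did not pass the quasi-likelihood test. Ankrd37, an ankyrin repeat protein, was also rare, at 2.99, 2.27, 2.48 and 1.71 CPM, and its soft and stiff values overlapped.

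Ndrg1 and Ddit4 had larger estimates for the inhibitor than for stiffness. Ndrg1, a stress-induced cytosolic protein, stood at 51.3, 81.3, 29.1 and 54.7 CPM, with the A83-01 library higher on each matrix. Ddit4, an inhibitor of mTOR complex 1 that also responds to other stresses, stood at 303, 155, 267 and 58.4 CPM, with both A83-01 libraries lowest. Their stiffness estimates, −0.69 and −0.79, did not pass the edgeR quasi-likelihood test.

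Among the enzymes, the largest stiffness estimates were those of Hk2 and Pfkl, which act early in the chain. The transporter gene Slc2a1, encoding GLUT1, stood at 184, 182, 93.02 and 46.9 CPM. Its 2 soft libraries were nearly equal, the stiff library was 1.97-fold lower (1.89 to 2.07) than soft, and stiff with A83-01 was 3.87-fold lower (3.67 to 4.09) than soft with A83-01. The estimate for Slc2a1, −1.47 (SE 0.265, adjusted p = 0.0513), lay just outside the threshold of the quasi-likelihood test. The inducible hexokinase Hk2 stood at 67.97, 71.96, 31.6 and 17.4 CPM and fell on stiff matrix (log2 estimate −1.58, SE 0.257, edgeR adjusted p = 0.0414). Its constitutive relative Hk1 stood at 105, 121, 113 and 113 CPM, with soft and stiff overlapping, so that Hk2 went from 24.3% and 22.7% of the Hk1 and Hk2 sum of FPKM on soft matrix to 12.2% and 7.05% on stiff. The glucose 6-phosphate isomerase gene Gpi stood at 788, 949.6, 641 and 576 CPM, with an estimate of −0.51 (SE 0.208, adjusted p = 0.217) in the quasi-likelihood test.

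Phosphofructokinase, the committed step, is a tetramer of liver (Pfkl), platelet (Pfkp) and muscle (Pfkm) type subunits. Pfkl stood at 374, 388, 195 and 130.2 CPM and fell on stiff matrix (log2 estimate −1.26, SE 0.214, edgeR adjusted p = 0.0450). Pfkp stood at 72.5, 88.2, 99.6 and 89.2 CPM and Pfkm at 35.9, 31.6, 36.3 and 29.3 CPM. Pfkp was higher in both stiff libraries than in both soft ones, and Pfkm overlapped between matrices. The estimates of Pfkp and Pfkm, 0.24 and −0.05, did not pass. Pfkl made up 75.1% and 73.6% of the summed phosphofructokinase FPKM on soft matrix but 55.3% and 48.5% on stiff.

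**Figure D3:**
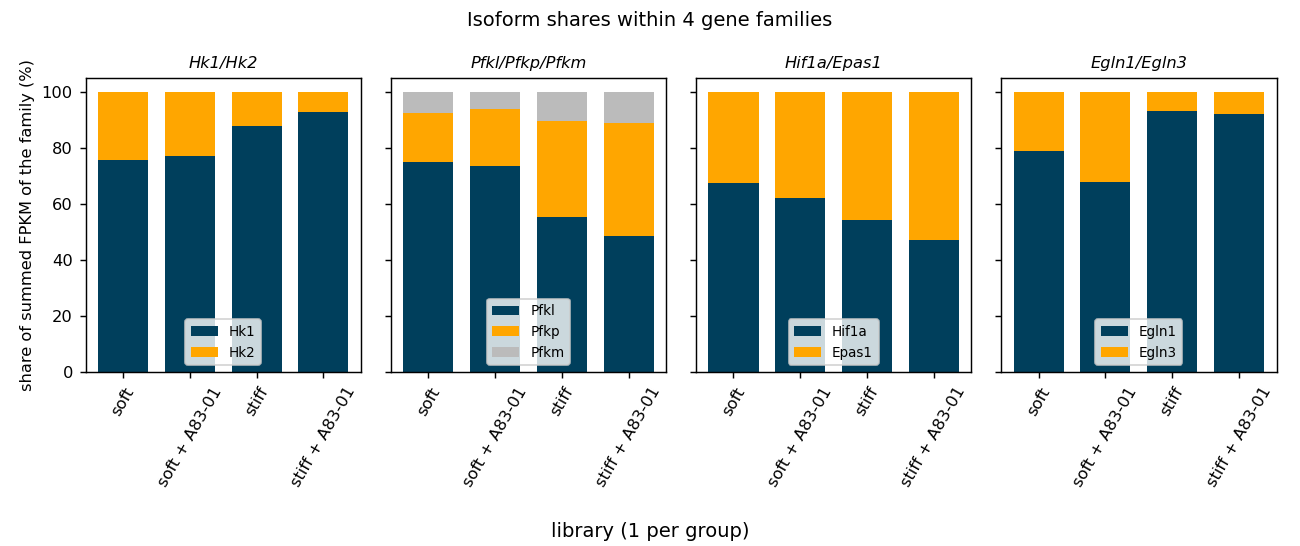
Share of the summed FPKM of a gene family held by each member, in percent, for hexokinases, phosphofructokinases, HIF alpha subunits and prolyl hydroxylases, with 1 bar per library. Hk2, Pfkl, Hif1a and Egln3 each hold a smaller share in both stiff libraries than in both soft libraries.

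The regulators of flux followed the same order of matrices. Pfkfb3 makes fructose 2,6-bisphosphate, the strongest activator of phosphofructokinase, and stood at 249.9, 308, 80.4 and 149 CPM. It fell on stiff matrix (log2 estimate −1.34, SE 0.200, edgeR adjusted p = 0.0344), and the stiff library without inhibitor was lowest, 3.11-fold lower (2.97 to 3.26) than soft. With A83-01 the stiffness fold was 2.07-fold lower (2.01 to 2.14). Pdk1, a kinase that inhibits pyruvate dehydrogenase, stood at 52.3, 55.6, 29.96 and 24.8 CPM and fell on stiff matrix (log2 estimate −0.98, SE 0.156, edgeR adjusted p = 0.0385). Pfkfb4, a relative of Pfkfb3, was rare, at 2.60, 2.63, 1.961 and 2.44 CPM, and its counting intervals included equality in both stiffness comparisons.

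The lower part of the chain, from aldolase to lactate dehydrogenase, had estimates between −1.03 and −0.35, and none of its 10 genes passed the edgeR test. DESeq2 called 6 of them down (Aldoc, Eno2, Ldha, Pgam1, Pgk1 and Tpi1) and limma-voom called Aldoc. Over all genes, DESeq2 called 5.41% down and limma-voom 4.56%. Pgk1, which makes the first ATP, stood at 671, 680.4, 438 and 293 CPM, with an estimate of −0.92 (SE 0.223, adjusted p = 0.0897) in the edgeR test. Pgam1, phosphoglycerate mutase, stood at 507, 631, 330.1 and 294 CPM, with −0.86 (SE 0.202, adjusted p = 0.0847). Ldha, the lactate dehydrogenase subunit induced by HIF, stood at 838, 929, 605 and 473 CPM, with −0.72 (SE 0.217, adjusted p = 0.133). For these 3 genes both stiff libraries lay below both soft ones. The triosephosphate isomerase gene Tpi1, Aldoa and the minor aldolase gene Aldoc did likewise, with estimates of −0.78, −0.63 and −1.03. Gapdh stood at 2439, 2999, 2279 and 1967 CPM and Eno1 at 1865, 2021, 1755 and 1213 CPM, where stiff without inhibitor was close to soft and stiff with A83-01 was lowest. The neuron-type enolase gene Eno2 stood at 118, 129.8, 84.97 and 42.7 CPM, with −1.03 (SE 0.294, adjusted p = 0.120). Pkm, pyruvate kinase, stood at 215, 238, 227 and 124 CPM: the 3 libraries other than stiff with A83-01 lay close together, and that library was 1.91-fold lower (1.84 to 1.99) than soft with A83-01.

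**Figure D4:**
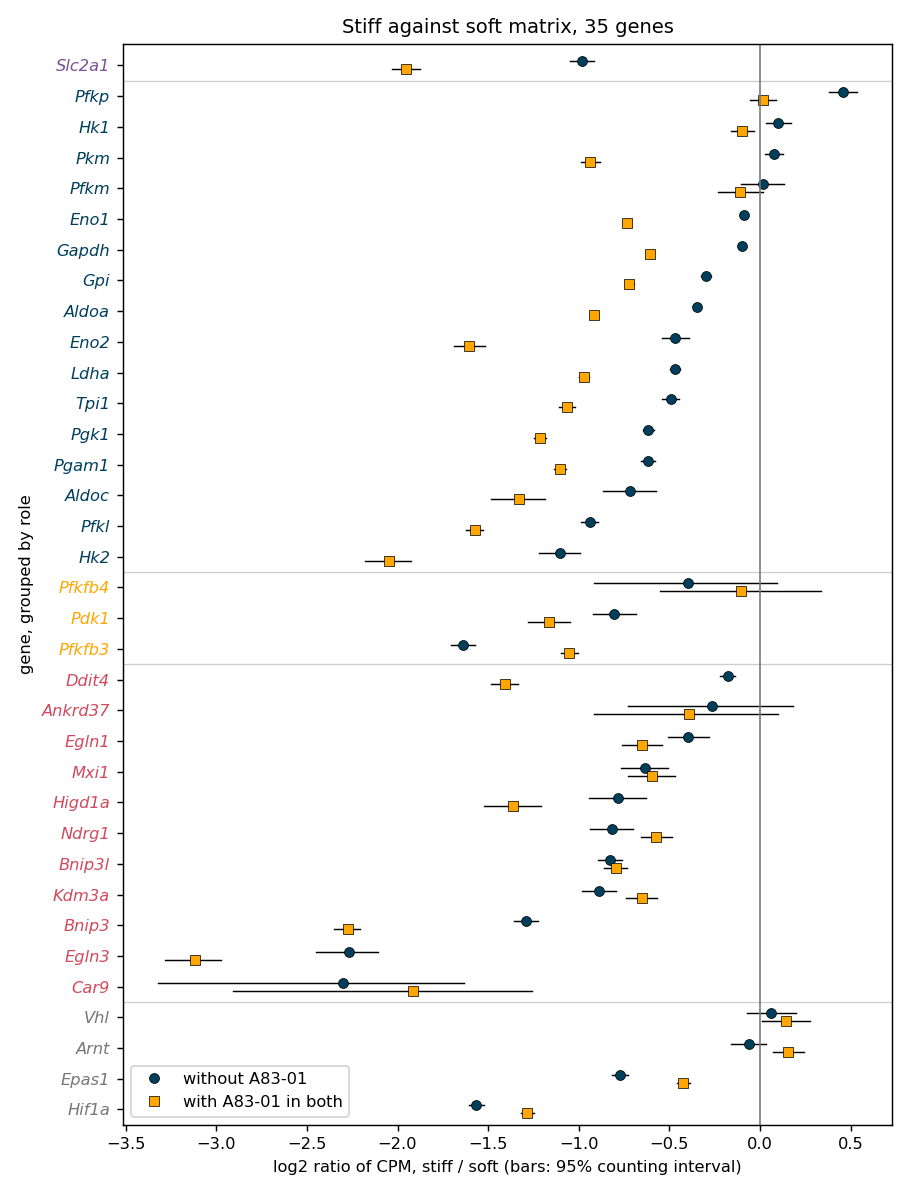
Log2 ratio of stiff to soft for 35 members, without A83-01 (circles) and with A83-01 in both libraries (squares), with bars for 95% counting intervals. Glycolytic enzymes lie further left with A83-01 (median −0.95) than without (median −0.41), while the other HIF targets have medians of −0.80 and −0.82.

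Glycolytic enzymes and other HIF targets were then compared as 2 lists, as a description without a test. In the additive model, 2 of 16 enzymes and 4 of 11 other HIF targets were called down, against 3.29% of all genes, with medians of −0.68 and −0.79. That model's residual is the interaction, which raises the SE of genes whose A83-01 ratios differ between matrices. For 14 of the 16 enzymes and 3 of the 11 other targets that ratio was above 0 on soft and below 0 on stiff. The 2 call counts are therefore not on equal terms. Both stiff libraries were below both soft ones for 12 of the 16 enzymes and 8 of the 11 targets, against 27.1% of all genes. For stiff against soft with no A83-01, 12 enzymes were below 0 and 4 above, with a median log2 ratio of −0.41 and a range of −1.10 to 0.46, and with total-count scaling 15 were below and 1 above. All 11 other targets were below 0, with a median of −0.82 and a range of −2.30 to −0.18. At least 2-fold lower, with an interval excluding equality, were 1 enzyme (Hk2) and 3 other targets (Egln3, Bnip3 and Car9), where 8.58% of all genes were. None of either list was 2-fold higher, where 5.33% of all genes were. Over all 35 members, 6 were 2-fold lower.

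With A83-01 in both libraries, 15 of 16 enzymes were below 0, with a median log2 ratio of −0.95 and a range of −2.05 to 0.02. All 11 other targets were below 0 again, with a median of −0.80 and a range of −3.12 to −0.39. Here 7 enzymes (Hk2, Eno2, Pfkl, Aldoc, Pgk1, Pgam1 and Tpi1) and 5 other targets (Egln3, Bnip3, Car9, Ddit4 and Higd1a) were at least 2-fold lower, where 6.72% of all genes were. Of all 35 members, 16 were 2-fold lower and 0 higher, where 6.88% of all genes were higher. The 2 stiffness comparisons share no library, and 29 members were below 0 in both, as were 35.1% of all genes. Relative to the median of all genes, the enzymes' median was −0.41 without and −0.96 with A83-01, and that of the other targets −0.82 and −0.81. With total-count scaling and no such centring the enzymes had −0.64 and −0.92 and the other targets −1.05 and −0.76. These differences between the lists have no replicate check.

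A83-01 was tested in the same additive model, where edgeR (quasi-likelihood, Benjamini-Hochberg adjusted) called 0 members up and 0 down. Over all genes it called 0% up and 0.044% down. At an unadjusted p of at most 0.05, 2 members were up (Ndrg1 and Pfkfb3) and 1 was down (Ddit4), where 7.25% of all genes were up and 6.04% down, so these counts do not exceed the background. DESeq2 called Ndrg1 up and Ddit4 down, where it called 219 up and 244 down of 13634 genes, and limma-voom called 0. The estimates were 0.79 (SE 0.136, adjusted p = 0.158) for Ndrg1, 0.59 (SE 0.197, adjusted p = 0.326) for Pfkfb3 and −1.58 (SE 0.327, adjusted p = 0.197) for Ddit4 in the quasi-likelihood test. Ddit4 was 1.95-fold lower (1.89 to 2.02) with A83-01 on soft and 4.58-fold lower (4.36 to 4.81) on stiff matrix. Ndrg1 was 1.58-fold higher (1.49 to 1.68) and 1.88-fold higher (1.73 to 2.04), and Pfkfb3 was 1.23-fold higher (1.20 to 1.27) and 1.85-fold higher (1.76 to 1.94). Ndrg1 and Ddit4 thus lay on opposite sides of equality on both matrices. Ddit4 on stiff was the only member past 2-fold with A83-01, where 4.47% of all genes were lower and 7.80% higher. On soft matrix no member was past 2-fold, where 2.44% of all genes were lower and 2.18% higher.

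On soft matrix, nearly all glycolytic enzymes were slightly higher with A83-01: 15 of 16 lay above 0, with a median log2 ratio of 0.15 and a range of −0.18 to 0.32. On stiff matrix 15 of 16 lay below 0, with a median of −0.38 and a range of −0.99 to 0.01, although with total-count scaling, which raised the median of all genes to 0.31 there, 11 lay below 0 and 5 above (Gpi, Pfkp, Gapdh and Pgam1 changed sign), and with RLE scaling all 16 lay below. Relative to the median of all genes, the enzymes' median on stiff was −0.41 with either scaling. The 2 inhibitor comparisons share no library. In 14 of the 16 enzymes the ratio was above 0 on soft and below 0 on stiff, as in 16.7% of all genes and in 3 of the 11 other HIF targets. Largest in this respect were Eno2, Pkm and Hk2, whose A83-01 log2 ratios were 0.14, 0.14 and 0.08 on soft and −0.99, −0.87 and −0.86 on stiff. Slc2a1 had −0.02 on soft and −0.99 on stiff.

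**Figure D5:**
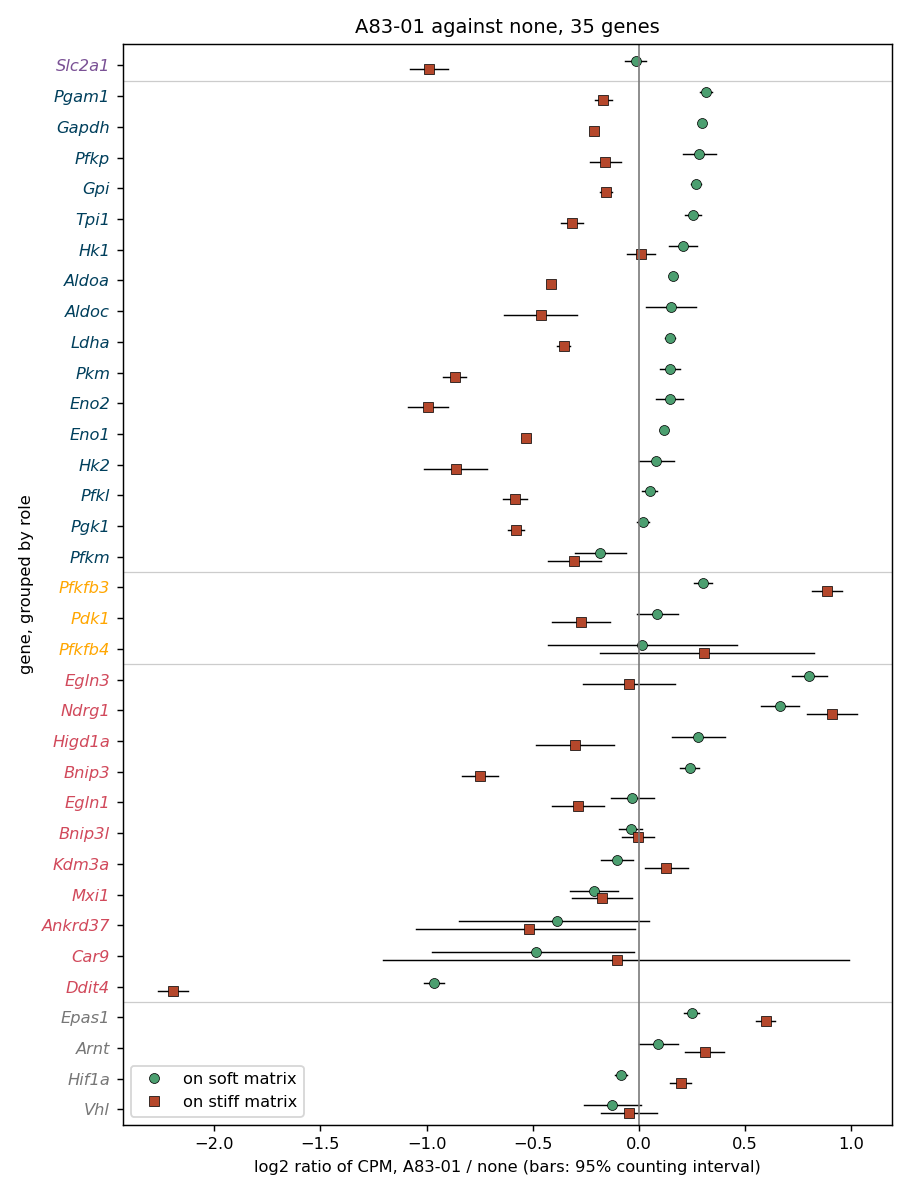
Log2 ratio of A83-01 to none for 35 members, on soft matrix (circles) and on stiff matrix (squares), with bars for 95% counting intervals. On soft matrix 15 of 16 glycolytic enzymes lie right of 0 and on stiff matrix 15 of 16 lie left of it, while Ddit4 lies left and Ndrg1 and Pfkfb3 lie right on both.

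The difference between both inhibitor ratios, stiff minus soft on the log2 scale, has a counting interval but no replicate check. It was −1.14 (−1.25 to −1.02) for Eno2, −1.01 (−1.08 to −0.94) for Pkm, −0.99 (−1.08 to −0.89) for Bnip3 and −0.97 (−1.07 to −0.87) for Slc2a1. Ddit4 had −1.23 (−1.31 to −1.14), since it was lower on both matrices but more so on stiff. In the opposite direction, Pfkfb3 had 0.58 (0.50 to 0.67), Epas1 0.35 (0.29 to 0.41) and Hif1a 0.28 (0.23 to 0.34). Hif1a, Epas1 and Pfkfb3 were lowest in the stiff library without inhibitor, not in stiff with A83-01. The summed cell cycle markers were highest in stiff with A83-01 (818 CPM against 297 to 387), and their part in these differences was not tested.

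Further genes of these pathways were counted in full. Of 27 other genes known as HIF targets that were tested (28 listed), 7 fell on stiff matrix and 0 rose by the edgeR quasi-likelihood test, where 3.29% of all genes fell, and 23 had an estimate below 0. The 7 were Angptl4, a lipase inhibitor (log2 estimate −2.69, SE 0.247, edgeR adjusted p = 0.0148), the hormone gene Stc1 (−3.47, SE 0.604, adjusted p = 0.0476), the haem oxygenase gene Hmox1 (−1.91, SE 0.286, adjusted p = 0.0348), the lactate exporter gene Slc16a3 (−1.80, SE 0.299, adjusted p = 0.0425), the transcription repressor gene Nfil3 (−1.46, SE 0.164, adjusted p = 0.0206), the disulfide oxidase gene Ero1a (−1.45, SE 0.247, adjusted p = 0.0450) and the mitochondrial protein gene Fam162a (−0.86, SE 0.139, adjusted p = 0.0405). Several of them also answer to signals other than HIF. DESeq2 called 15 of the 27 down and 1 up, and limma-voom 11 down and 0 up. Of all 13634 genes, DESeq2 called 737 (5.41%) down and 574 up, and limma-voom 622 (4.56%) down and 467 up. By A83-01, edgeR called 0 of the 27 in either direction, with 2 up and 3 down at an unadjusted p of at most 0.05. Over all genes, 7.25% were up and 6.04% down unadjusted. DESeq2 called 1 of the 27 up (Adm) and 1 down (P4ha2), where it called 219 up and 244 down of 13634 genes. With limma-voom 0 of the 27 were called.

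Lists for neighbouring routes of glucose metabolism and for HIF control were short, and are set beside the shares of all genes called for stiffness, 3.29% down and 2.35% up. Unadjusted, 13.2% of all genes were down and 12.1% up for stiffness. Of 8 further glycolytic isoforms tested (15 listed), edgeR called 0 for stiffness, with 2 up and 0 down at an unadjusted p of at most 0.05. The most abundant was Ldhb, the heart-type lactate dehydrogenase subunit, at 22.4, 22.3, 22.8 and 46.6 CPM, where the stiff library with A83-01 stood apart. Of 12 genes for the entry of pyruvate into mitochondria 0 were called, with 1 up and 0 down unadjusted, and the pyruvate dehydrogenase subunit gene Pdha1 stood at 163, 173, 181 and 182 CPM. Of 6 pentose phosphate genes tested (8 listed) 0 were called, with 1 up and 0 down unadjusted, and Tkt, transketolase, stood at 388, 404, 529.8 and 501 CPM. Of 11 genes for the control of HIF, 0 were called, with 0 up and 2 down unadjusted, and the elongin gene Elob stood at 162, 180.4, 213 and 158 CPM. The list medians were 0.06, 0.11, 0.18 and 0.05 in this order, against 0.01 over all genes. By A83-01, edgeR called 0 genes of these 4 lists, and 2 were up and 0 down unadjusted, where 7.25% of all genes were up and 6.04% down. In these 4 lists DESeq2 called Arnt2 alone, down on stiff matrix and up with A83-01, and limma-voom called 0. Of all 13634 genes, DESeq2 called 737 down on stiff matrix and 219 up with A83-01.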

How the data were processed

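The authors deposited whole-number read counts per gene and, separately, FPKM values per gene, for 4 libraries of rat microvessel cells. Per the submitters' processing notes, HISAT2 and edgeR were used with build Rnor_6.0, and which program counted the reads, the annotation and tool versions are left unstated there. Per the labels' protocols, mRNA was selected with oligo(dT) beads and no step that marks strand is mentioned, so reads of overlapping genes may be mixed.

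From the counts, R 4.3.3 with edgeR 4.0.16 gave TMM factors over 4 libraries, and 13634 genes with at least 1 CPM in at least 1 library were kept. The quasi-likelihood test used an additive model of stiffness and A83-01, with 1 residual degree of freedom and a threshold of 0.05 after Benjamini-Hochberg adjustment over all genes. That residual is the interaction, so genes that respond alike in both arms are favoured. The common dispersion was 0.0351. Library pairs were compared by the log2 ratio of CPM with a prior count of 2, called at 2-fold where the 95% Clopper-Pearson interval excluded equality, and printed folds are plain CPM ratios. Alternatives were RLE and total-count scaling, no expression minimum, a prior count of 0.5, a fold of 1.5, the FPKM ratio, DESeq2 1.42.0, limma-voom (limma 3.58.1) and a model with 1 factor. All 36 members are named by rule, and genes of the 5 further lists only when called or, without a call, by highest count. Members, lists and tests were chosen with earlier results of these data known. Promoters are from RefSeq (GRCr8), printed for the 5 called members of largest change and for Gapdh, the uncalled enzyme of highest FPKM.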

Additional observations from a re-analysis of the deposited data

Results flagged for a closer look

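For 16 members the A83-01 ratio lay on opposite sides of 1 on the 2 matrices, with both counting intervals excluding equality. With 1 library per group these differences were not tested. The A83-01 log2 ratio on stiff minus that on soft was negative for 14 of them: Eno2 (−1.14), Pkm (−1.01), Bnip3 (−0.99), Eno1 (−0.65), Pfkl (−0.63), Aldoc (−0.61), Higd1a (−0.58), Aldoa (−0.57), Tpi1 (−0.57), Gapdh (−0.51), Ldha (−0.50), Pgam1 (−0.48), Pfkp (−0.44) and Gpi (−0.42). It was positive for Hif1a (0.28) and Kdm3a (0.23). In 12 of the 14 the gene encodes a glycolytic enzyme. For Hk1 and Pkm the stiffness ratio also lay on opposite sides of 1 without and with A83-01, with differences of −0.20 and −1.01. On stiff matrix the side of 1 rests on scaling for Gpi, Pfkp, Gapdh and Pgam1, and without the inhibitor it does so for Hk1 and Pkm.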

How the results depend on the processing

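Members called down on stiff matrix numbered 9, and 3 with RLE scaling, 24 with total-count scaling, 13 without the expression minimum, 19 with DESeq2, 14 with limma-voom and 0 with stiffness alone in the model. Over all genes, 449 were called down, and 323, 1136, 561, 737, 622 and 17 under these settings. All 9 remained among the calls of each setting other than RLE and the 1-factor model, and no setting called a member up. Stiffness estimates of Hk1 (−0.0957 with total counts, −0.00176 with 1 factor) and Arnt (−0.0514 with total counts) changed sign.

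For A83-01, total-count scaling called 2 up (Ndrg1 and Pfkfb3) and 1 down (Ddit4), and DESeq2 called 1 up and 1 down. Over all genes, up and down calls were 0 and 6 as reported, 563 and 271 with total counts, 10 and 17 without the minimum, and 219 and 244 with DESeq2. Uncalled A83-01 estimates that changed sign were, with total counts, Aldoa (0.0203), Tpi1 (0.116), Ldha (0.0435), Pdk1 (0.0547), Bnip3l (0.126), Higd1a (0.138) and Vhl (0.0610), with limma-voom Higd1a (0.0498), and with 1 factor Tpi1 (0.0437), Bnip3 (0.0140), Kdm3a (−0.0184), Higd1a (0.0912) and Hif1a (−0.00934).

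At 1.5-fold in place of 2-fold, 18 in place of 6 members were lower in stiff against soft (15.6% of all genes), and 26 in place of 16 with A83-01 (13.1%). For A83-01 on stiff, 6 in place of 1 were lower (9.98%) and 3 in place of 0 higher (15%), and on soft 1 was lower (5.96%) and 2 higher (5.63%) in place of 0. With total counts, 14 members were 2-fold lower in stiff against soft (11.7% of all genes) and 2 were higher with A83-01 on stiff (12.1%). With RLE, 3 were lower with A83-01 on stiff (4.59%). The enzymes' median in stiff against soft, −0.41, was −0.64 with total counts, −0.39 with RLE and −0.65 with FPKM, and with A83-01 in both it was −0.95, and −0.89 with FPKM. For A83-01 on stiff it was −0.38, −0.0998 with total counts and −0.0865 with FPKM. The other targets' median in stiff against soft, −0.82, was −1.05 with total counts and −1.07 with FPKM. Their median for A83-01 on stiff, −0.17, turned to 0.11 with total counts and 0.15 with FPKM. Leaving out any 1 library leaves the additive model no residual, so that alternative was not run and the library pairs stand in its place. No paired analysis was possible because each group holds 1 library and only the stiff libraries carry a number in their labels, so no number pairs stiff with soft. The additive model does compare the matrices within each inhibitor arm. Depth limits Car9, Ankrd37 and Pfkfb4, whose counts were between 15 and 100 per library.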
